A study of Homo sapiens with 68 samples.

Results

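RBFOX2 and hnRNP C were compared in 10,000 HEK293T cells, a human embryonic kidney line, by TLC-CLIP, in which ultraviolet light links proteins to the RNA they touch and an antibody then recovers 1 protein with its RNA fragments. The comparison was chosen by the group titles RBFOX2_10k and hnRNPc_10k, which gave 4 of the 68 libraries of the series, 2 for each protein. Both groups were unmodified cells crosslinked on ice with ultraviolet light, lysed, treated with 0.001 U of RNase and purified on a gel. They differed in the antibody, which was against RBM9 (another name of RBFOX2) or against hnRNP C1/2 (hnRNPc in the group names). The series compares cell numbers, RNase amounts and purification steps for 4 proteins, and the same 2 proteins were also profiled in 50k and 1k cells. Nothing in the labels says whether replicates came from separate cultures, so p-values measure the spread between these libraries, which may be technical.

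RBFOX2 is a splicing regulator that binds short GCAUG elements, many of them in introns next to alternative exons. hnRNP C is an abundant nuclear protein that binds runs of uridine in nascent transcripts, and it keeps other splicing factors away from intronic sequence. The peak lists name genes by Ensembl identifier without symbols, so the members of known target groups could not be picked out, and sites are given by position in hg19, the build named in the submitters' processing notes.

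Each library is a list of peaks, and the last number in a peak's name was read as its number of reads, although the lists do not state its meaning. The RBFOX2 libraries listed 140539 and 167449 peaks in 12991 and 13561 genes. The hnRNP C libraries listed 264496 and 267111 peaks in 12635 and 12615 genes. Peaks of 1 strand less than 30 nt apart were joined into clusters, and a cluster took the highest read number of its peaks. The RBFOX2 clusters held 1768281 and 2128791 reads and the hnRNP C clusters 2719629 and 2720700. All levels below are shares of these sums, given in percent or as reads per 1000000 cluster reads of the library (RPM), because the number of sequenced reads is not given and the depth is unknown. Absence from a list means that no peak passed the authors' caller, and it puts no upper limit on the reads at that position. With 2 libraries against 2, an exact permutation test cannot give a p below 0.333, so the measures of whole libraries are descriptions.

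A cluster of 16 nt on chromosome 15 ranked second by reads in both RBFOX2_10k libraries. It lies at chr15:87435269-87435284 on the plus strand, and it held 21908 reads, 1.24% of all cluster reads, in RBFOX2_10k replicate 1 and 27501 reads, 1.29%, in replicate 2. Neither hnRNPc_10k library listed it, and so it ranked first among the sites of RBFOX2 only. It was listed in 12 of the 68 libraries. None of the 16 libraries without ultraviolet light and none of the 28 libraries titled 50k listed it. The libraries titled hnRNPc_5k_noPAGE and hnRNPc_500_noPAGE, and their RecJ sets, did not list it either. Those were labelled 50k cells at 0.005 U of RNase, against 5k and 500 in their titles. The 16 without ultraviolet light were labelled 50k cells at 0.005 U of RNase. Ultraviolet light, cell number and RNase therefore cannot be told apart in this absence. RBFOX2_1k had 154 and 122 reads in the cluster and hnRNPc_1k 94 and 96. In the libraries of the 75-100 kDa gel region, made with the hnRNP C antibody, the cluster held 58805 and 73432 reads, which was 62.2% and 74.9% of their cluster reads. It held 171 and 140 reads (2.7% and 1.8%) in the 100-150 kDa region, and 10 and 22 (0.13% and 0.27%) in the 50-75 kDa region. Results that rest on the leading positions are therefore given with and without the cluster. What this cluster is was not tested.

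RBFOX2 reads lay in fewer positions than hnRNP C reads. The 100 clusters with most reads held 9.08% and 8.29% of the reads in the RBFOX2 libraries, against 5.09% and 5.11% in the hnRNP C libraries. The groups did not overlap, and the means were 8.69% ± 0.56 (SD, n = 2) and 5.10% ± 0.010 (SD, n = 2), with an exact two-sided permutation p of 0.333, the smallest the design allows. Without the chromosome 15 cluster the RBFOX2 mean was 7.54%. In the 50000 peaks with most reads of each library, the difference between the means shrank from 3.59 to 0.88 percentage points. In the other direction, 50% of the reads lay in 14.6% and 14.0% of the RBFOX2 clusters, and in 24.7% and 25.1% of the hnRNP C clusters. RBFOX2 had 1020 and 1355 clusters of at least 100 reads and hnRNP C 443 and 408, although the hnRNP C libraries held more clusters and more reads. Clusters were wider for RBFOX2, with medians of 68 and 67 nt against 55 and 56 nt, and the median cluster had 8 reads in every library.

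**Figure D1:**
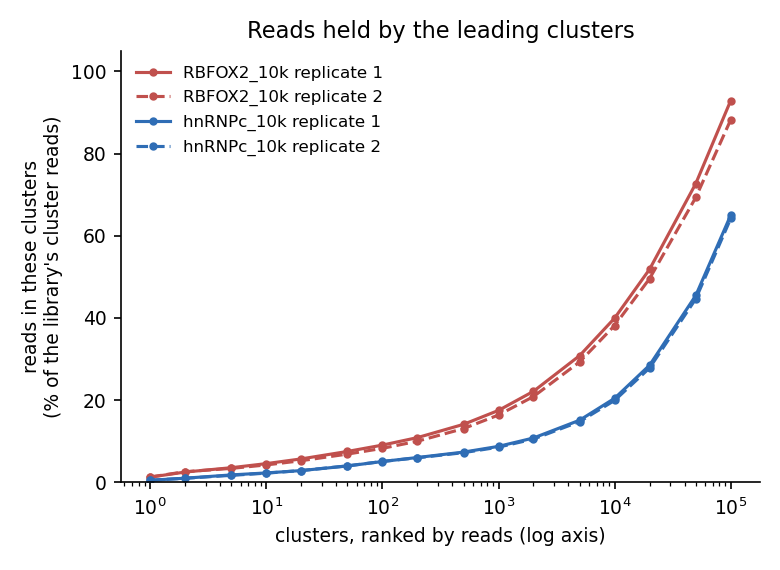
Percent of a library's cluster reads (vertical axis) held by its clusters with most reads, against the number of clusters counted from the top (horizontal log axis), for each of the 4 libraries. Both RBFOX2 curves lie above both hnRNP C curves throughout: at 10000 clusters they stand at 40.0% and 38.2%, against 20.5% and 19.95%.

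Counted by gene, the order of the proteins depended on the measure and on the processing. It took 1126 and 1152 genes to reach 50% of the RBFOX2 reads and 998 and 971 genes to reach 50% of the hnRNP C reads. The 10 genes with most reads held 7.98% and 7.41% for RBFOX2 and 6.26% and 6.37% for hnRNP C. This second difference was 1.37 percentage points between means, 0.48 without the chromosome 15 cluster, and −0.59 with only peaks of p below 1e-05. For RBFOX2, 2 of the 10 genes are overlapping identifiers on chromosome 11 that hold the same stack of reads, which counts under both. Their RBFOX2 shares were 12876 and 13211 RPM and 12738 and 13071 RPM, against 675 to 749 RPM for hnRNP C. The part of this repeat in the second difference was not tested. The first difference also turned, to −175 genes, when the reads of joined peaks were summed. The order by cluster kept its direction under each alternative tried.

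The same order held within genes. In the 2941 genes with at least 100 reads in every library, the leading cluster held a median of 14.2% and 12.9% of the gene's reads for RBFOX2, against 6.32% and 6.17% for hnRNP C. Both RBFOX2 libraries exceeded both hnRNP C libraries in 2306 of these genes (78.4%), and the reverse held in 213 (7.24%). In the remaining 422 genes the libraries of the proteins overlapped. These genes had a median of 20 and 23 clusters in the RBFOX2 libraries and of 40 and 41 in the hnRNP C libraries, and they also had more hnRNP C reads, with medians of 431 and 435 against 228 and 267. The part of this difference in reads in the result was not tested. The leading cluster was the same, by an overlap of at least 1 nt, in 1685 genes (57.3%) between the RBFOX2 replicates and in 967 genes (32.9%) between the hnRNP C replicates. Between an RBFOX2 and an hnRNP C library it was the same in 73 to 81 genes, 2.48% to 2.75%. The strongest position of a gene was thus rarely the same for the proteins, and in RBFOX2 it was the same in most genes between replicates.

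The 2 leading RBFOX2 clusters were of a different size from the rest. Beside the chromosome 15 cluster, the stack at chr11:62609121-62609282 on the minus strand, which the lists place under 2 overlapping gene identifiers, held 22768 and 28124 reads. Together these 2 clusters had 2.53% and 2.61% of the RBFOX2 reads. The next RBFOX2 cluster lies on the mitochondrial genome and held 0.43% and 0.34%. In hnRNP C the leading cluster was mitochondrial too, with 14259 reads in replicate 1. Mitochondrial clusters together held 2.28% and 1.78% of RBFOX2 reads and 2.15% and 2.13% of hnRNP C reads, and those ranges overlap. Among genes, the largest hnRNP C share was that of a chromosome X identifier with 55 and 53 clusters, at 20830 and 21203 RPM, against 8074 and 7120 RPM for RBFOX2.

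Replicates shared far more peaks than the proteins did. RBFOX2_10k replicate 2 overlapped 46.1% of the peaks of replicate 1 by at least 1 nt on the same strand, and 39.3% the other way. For hnRNP C the replicate overlaps were 43.1% and 42.6%. Libraries of the other protein overlapped 9.78% to 11.04% of RBFOX2 peaks and 5.81% to 6.25% of hnRNP C peaks. The hnRNP C lists are longer, so the share of each list is given in both directions. With the 50000 peaks of most reads from each library, which makes lists of equal length, the means were 6.95% and 6.73%, and the replicate means 60.8% and 56.0%.

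Overlap rose with the number of reads. Of RBFOX2 peaks under 10 reads, 24.2% were overlapped by the replicate, and of those with 100 reads or more, 98.6%. The hnRNP C peaks went from 27.9% to 97.9%. Overlap with the other protein rose as well, from 8.39% to 35.8% for RBFOX2 peaks and from 3.94% to 46.0% for hnRNP C peaks. The strongest peaks were thus nearly all found in the replicate, and they were also the ones most often listed for the other protein.

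**Figure D2:**
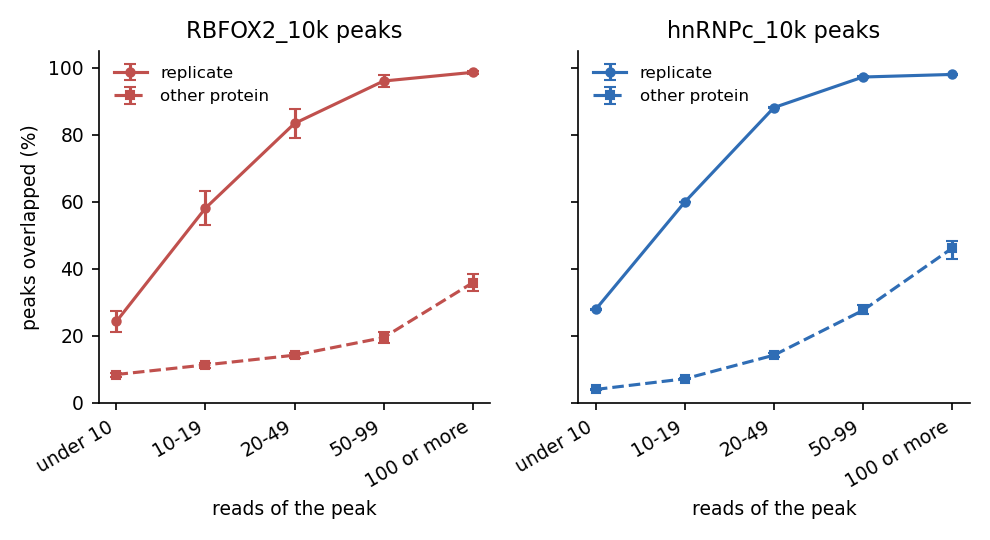
Percent of the peaks of a 10k library overlapped by another 10k library (vertical axis) by the read number of the peak (horizontal axis), for RBFOX2 peaks (left) and hnRNP C peaks (right). Points are means and bars run from the lowest to the highest of 2 replicate pairs (solid lines) or 4 pairs with the other protein (dashed lines): replicates reach 98.6% and 97.9% at 100 reads or more, and the other protein 35.8% and 46.0%.

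Overlapping peaks of the 4 libraries were merged into 586385 sites, of which 418697 (71.4%) were listed in 1 library. Sites listed in both RBFOX2 libraries and in neither hnRNP C library, called RBFOX2 only, numbered 45979. Sites of hnRNP C only numbered 90720, and 4739 sites were listed in all 4 libraries and are called shared. The other 26250 sites were listed unevenly. Shared sites were 8.38% of the 56582 sites of both RBFOX2 libraries and 4.58% of the 103415 sites of both hnRNP C libraries. They held 14.0% and 12.2% of the site reads of the RBFOX2 libraries and 8.57% and 8.17% of those of hnRNP C, while RBFOX2 only sites held 49.2% and 46.1% and hnRNP C only sites 44.6% and 44.4%. Sites of 1 protein only had medians of 10 to 12 reads, and shared sites 15 to 16. These numbers rest on both replicates. Asking for 1 library of RBFOX2 gave 136190 RBFOX2 only sites without replicate 1 and 112264 without replicate 2, with 8611 and 8336 shared. Asking for 1 library of hnRNP C gave 232600 and 229394 hnRNP C only sites, without replicates 1 and 2, and 7468 and 7405 shared. With only peaks of p below 1e-05 there were 27008, 34967 and 1804 sites of RBFOX2 only, hnRNP C only and shared.

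The strongest sites were more often shared. Of the 100 sites with the highest share in the lower RBFOX2 replicate, 63 were shared and 31 RBFOX2 only, and they lay in 45 genes. Of the 100 such hnRNP C sites, 40 were shared and 50 hnRNP C only, and they lay in 9 genes. Among the top 1000 the shared sites were 29.1% and 30.6%, and among the top 10000 13.7% and 12.7%. Mitochondrial sites made up 16 and 12 of the top 100.

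After the chromosome 15 cluster, the strongest RBFOX2 only sites outside the mitochondrial genome lay on chromosomes 7, 19 and X. The site at chr7:98479321-98479509 on the plus strand held 1192 and 1060 RPM, from 2107 and 2257 reads. Every other RBFOX2 library of 50k low RNase, 50k without PAGE and 1k cells listed it too, with 429 to 4143 reads, unscaled. It was listed without ultraviolet light as well, with 76 and 64 reads in noUV_RBFOX2 and 12 and 17 in noUV_hnRNPc. The hnRNPA1 libraries of 50k low RNase and 50k without PAGE had 303 to 360 reads there, and the hnRNPI libraries of those sets 23 to 59. In hnRNP C, hnRNPc_50k_lowRNase replicate 2 listed it with 12 reads and hnRNPc_50k_noPAGE replicate 2 with 11. The site at chr19:56181786-56181921 on the plus strand held 758 and 714 RPM and had 513 and 388 reads in the RBFOX2 libraries without ultraviolet light. It was also listed with 5 reads in hnRNPc_1k replicate 2, 37 in noUV_hnRNPc replicate 2, and 63 and 50 in hnRNPI_50k_lowRNase. The site at chrX:70766045-70766115 on the plus strand held 907 and 684 RPM, and 1 of the 2 RBFOX2 libraries without ultraviolet light listed it, with 12 reads. The hnRNP C libraries without ultraviolet light listed that site with 104 and 135 reads, and hnRNPI_50k_noPAGE with 260 and 228. So 3 of the 5 strongest RBFOX2 only sites recurred in all 6 of those other RBFOX2 libraries. The remaining site, chrM:1778-1780, is a strip of 3 nt beside the shared site chrM:1673-1777, left over by the merging rule, and both hnRNPc_50k_noPAGE libraries listed it, with 30287 and 32776 reads.

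The strongest hnRNP C only sites lay on the mitochondrial genome and on chromosomes X, 11 and 22. The site at chrX:73063887-73064048 on the minus strand held 749 and 709 RPM, and the 6 hnRNP C libraries of 1k, 50k low RNase and 50k without PAGE listed it. The hnRNP C libraries without ultraviolet light also listed it, with 1352 and 1810 reads. The site at chr22:38886928-38887035 on the minus strand held 224 and 211 RPM, and the site at chrX:107968150-107968235 on the minus strand 206 and 198. The site at chr11:65272999-65273077 on the plus strand held 220 and 222 RPM and was in neither RBFOX2_10k list. However, RBFOX2_50k_lowRNase listed it with 1046 and 938 reads and RBFOX2_50k_noPAGE with 1541 and 1597, unscaled. In hnRNPc_50k_noPAGE it had 1125 and 1313 reads. The hnRNP C libraries without ultraviolet light listed the chromosome 11 site with 940 and 587 reads and the chromosome 22 site with 357 and 298. Neither listed the second chromosome X site, which noUV_hnRNPA1 listed with 349 and 233. That site also had 899 and 1015 reads in hnRNPA1_50k_noPAGE and 178 and 195 in hnRNPA1_50k_lowRNase. The first chromosome X site had 883 and 769 reads in hnRNPA1_50k_lowRNase. No hnRNPA1 or hnRNPI library of 50k low RNase or 50k without PAGE listed the chromosome 22 site. Since RBFOX2_50k_lowRNase and RBFOX2_50k_noPAGE listed the chromosome 11 site, its place among the hnRNP C only sites did not carry over to 50k cells. The mitochondrial site chrM:2331-2350 held 1352 and 1024 RPM and was listed in both hnRNPc_1k libraries, with 2379 and 3661 reads, and in none of the 50k low RNase or 50k without PAGE libraries of these proteins.

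Sites of each class were then looked up in libraries that did not define them. RBFOX2_50k_lowRNase listed 80.9% ± 2.5 (SD, n = 2) of the RBFOX2 only sites and 4.91% ± 0.92 (SD, n = 2) of the hnRNP C only sites. RBFOX2_50k_noPAGE listed 56.1% and 3.37%, and RBFOX2_1k, with its shorter lists, 27.5% and 1.08% (means, n = 2). In the other direction, hnRNPc_50k_noPAGE listed 58.1% ± 1.2 (SD, n = 2) of the hnRNP C only sites and 7.31% ± 0.60 (SD, n = 2) of the RBFOX2 only sites, and hnRNPc_1k 50.0% and 2.78% (means, n = 2). In hnRNPc_50k_lowRNase, replicate 1 had 3268 peaks and replicate 2 had 214849, and they listed 1.74% and 52.3% of the hnRNP C only sites. In each of these libraries the sites of the matching class were listed more often than those of the other class. The 1k and 10k libraries and these crosslinked 50k libraries fall in separate blocks of the sample numbers of the series, so this look-up crosses that split. The labels do not say what the blocks stand for.

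The libraries without ultraviolet light give the background. noUV_RBFOX2 listed 8.40% ± 1.1 (SD, n = 2) of the RBFOX2 only sites and 0.41% of the hnRNP C only sites, from lists of 22911 and 30170 peaks. noUV_hnRNPc listed 33.4% ± 5.9 (SD, n = 2) of the hnRNP C only sites and 11.3% of the RBFOX2 only sites, from lists of 299307 and 299616 peaks. These 4 libraries came from 50k cells at 0.005 U of RNase, so their share cannot be set against the 10k libraries as a rate. Shared sites were the class most often found in these control libraries, at 20.5% and 57.6%, and also in libraries of other proteins. hnRNPA1_50k_lowRNase listed 64.6% of the shared sites, 26.4% of the RBFOX2 only sites and 19.1% of the hnRNP C only sites. hnRNPI_50k_lowRNase listed 37.8%, 20.9% and 8.19%. Shared sites were also wider, with a median of 140 nt, against 91 nt for RBFOX2 only and 76 nt for hnRNP C only sites. An overlap of 1 nt counted as listed, and the part of width and reads in these shares was not tested.

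**Figure D3:**
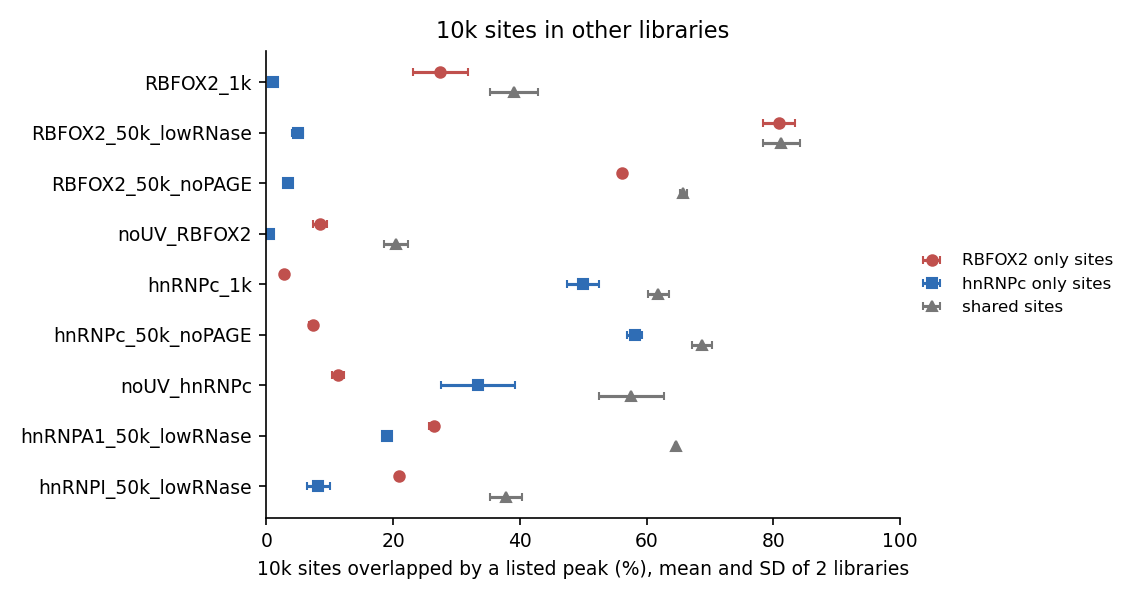
Percent of 10k sites (horizontal axis) overlapped by a listed peak in libraries that did not define them (rows), for sites of RBFOX2 only, of hnRNP C only and shared. Points are means and bars the SD of 2 libraries: RBFOX2_50k_lowRNase reaches 80.9% of the RBFOX2 only sites and 4.91% of the hnRNP C only sites, and noUV_hnRNPc 33.4% of the hnRNP C only sites.

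At the 4739 shared sites the share of reads could be tested, and 1551 (32.7%) were higher for RBFOX2 and 409 (8.63%) higher for hnRNP C, by limma with a Benjamini-Hochberg adjusted p of at most 0.05. The median difference was 0.55 on the log2 scale (RBFOX2 minus hnRNP C). The sites higher for RBFOX2 had a median of 1.89 on that scale, 714 of them at least 4-fold, and those higher for hnRNP C a median of −1.55, 90 of them at least 4-fold. The balance of directions depended on the scaling. RBFOX2 had 79.1% of the calls by share, 48.6% after quantile normalization (844 against 894) and 55.2% after centring each library on its median site (1008 against 819). Without RBFOX2_10k replicate 1 or replicate 2, no site passed in either direction by limma (1688 and 1784 sites had an unadjusted p under 0.05). Without hnRNPc_10k replicate 1 the calls were 1000 and 163, and without replicate 2 they were 952 and 178. With only peaks of p below 1e-05 they were 506 and 273.

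The named shared sites covered both cases. The stack at chr11:62609121-62609282 held 12876 and 13211 RPM in RBFOX2 and 677 and 749 in hnRNP C. RBFOX2 was thus 18.3-fold higher there, a difference of 4.20 ± 0.17 on the log2 scale (SE, n = 2 against 2; limma adjusted p 5.31e-08), and the libraries did not overlap. This adjusted p rose to 0.0896 without RBFOX2_10k replicate 1 and to 0.0870 without replicate 2, with differences of 4.21 and 4.18. The difference was 3.66 after median centring and 3.19 after quantile normalization, and both passed. The stack was also strong without ultraviolet light, with 8466 and 11540 reads in noUV_RBFOX2 and 5967 and 15149 in noUV_hnRNPc. The mitochondrial site chrM:1323-1486 held 1244 and 1091 RPM in RBFOX2 and 508 and 499 in hnRNP C, a 2.31-fold difference or 1.21 on the log2 scale (limma adjusted p 0.000295, n = 2 against 2). On that scale it was 0.68 after median centring and 0.28 after quantile normalization, where the limma adjusted p was 0.0599. The site chr6:52860640-52860733 on the plus strand held 877 and 708 RPM in RBFOX2 and 1145 and 1120 in hnRNP C, with an adjusted p of 0.0421 by limma that did not pass without any 1 of the 4 libraries. Its log2 difference was −0.52 by share, −1.06 after median centring (limma adjusted p 9.63e-05), −1.31 after quantile normalization (1.38e-05) and −0.93 with only peaks of p below 1e-05 (0.00258). Its read numbers in hnRNPA1_50k_lowRNase were 64320 and 57922, against 1507 to 3114 in the 10k libraries, unscaled. At chrM:1673-1777 and chrX:73071195-73071752 the libraries of the proteins overlapped, with log2 differences of 0.11 and −0.10 (limma adjusted p 0.675 and 0.707, n = 2 against 2). After median centring these became −0.43 and −0.63 (limma adjusted p 0.0289 and 0.00468). After quantile normalization they became 0.58 and −1.02 (limma adjusted p 0.000219 and 6.86e-05), so at chrM:1673-1777 both scalings gave a call, in opposite directions.

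By gene, most transcripts carried reads of both proteins in unequal amounts. Of 16203 gene identifiers listed, 9934 (61.3%) were listed in all 4 libraries, and these held 90.0% to 91.2% of the RBFOX2 reads and 98.2% to 98.3% of the hnRNP C reads. RBFOX2 alone was listed, in both its libraries, in 1425 genes, and hnRNP C alone in 857. The RBFOX2 only genes had medians of 22 and 31 reads and held 5.36% and 5.98% of the RBFOX2 reads, while the hnRNP C only genes had medians of 11 and 10 reads and held 0.55% and 0.52%. With at least 20 reads asked of each library, 718 and 163 genes remained. Without RBFOX2_10k replicate 2 the hnRNP C only genes numbered 1352, and without hnRNPc_10k replicates 1 and 2 they numbered 1331 and 1327. In the 50000 peaks with most reads of each library the RBFOX2 only genes numbered 2509.

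The share of reads per gene was tested in the 10132 genes with a mean of at least 10 RPM. RBFOX2 was higher in 3546 genes (35.0% of those tested) and hnRNP C in 3711 (36.6%), by limma on log2(share + 1) with a Benjamini-Hochberg adjusted p of at most 0.05. The remaining 2875 genes passed in neither direction. The genes higher for RBFOX2 differed more. Their median log2 difference was 2.78, and 2.16 in the 2670 of them listed in all 4 libraries. The genes higher for hnRNP C had a median of −1.50, and −1.45 in the 3532 listed in all 4. A difference of at least 4-fold was fitted in 2334 genes higher for RBFOX2 and in 1012 higher for hnRNP C. The median over all genes tested was −0.16. A gene not listed in a library was given a share of 0 there. Of the called genes, 538 higher for RBFOX2 were in neither hnRNP C list, and 42 higher for hnRNP C were in neither RBFOX2 list. Their fold rests on the pseudocount of 1 RPM. With only genes listed in all 4 libraries tested, RBFOX2 was higher in 2754 and hnRNP C in 3736. Leaving out RBFOX2_10k replicate 1 left 2336 RBFOX2 calls, and leaving out replicate 2 left 2249. Above a mean share of 50 RPM, RBFOX2 was higher in 1871 genes and hnRNP C in 2541, and with only peaks of p below 1e-05 the numbers were 2684 and 2304.

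The genes at the far ends of this comparison were listed for 1 protein. Among the 10 genes with the largest difference in favour of RBFOX2, 8 were in neither hnRNP C list. The 10 in favour of hnRNP C were in neither RBFOX2 list. An unlisted gene was set to 0, so neither a fold nor a p-value is given for these genes. The first RBFOX2 gene, ENSG00000166748.8, is listed through the chromosome 15 cluster alone. The second, ENSG00000261971.2, is listed on the minus strand of chromosome 16 between 3103969 and 3108188, with 2380 reads in 7 clusters and 2467 reads in 6 clusters (1346 and 1159 RPM). The first hnRNP C gene, ENSG00000232546.1, is listed on the plus strand of chromosome 7 between 66314884 and 66321751, with 382 reads in 21 clusters and 240 reads in 14 clusters. The second, ENSG00000258017.1, is listed on the plus strand of chromosome 12 between 49525949 and 49541500, with 211 reads in 18 clusters and 218 reads in 20 clusters. The RBFOX2 gene on chromosome 16 thus had several times the reads of these hnRNP C genes in fewer clusters.

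Genes called at 10k were read in library sets that share no sample with them. Of the 3546 genes higher for RBFOX2, 3278 were tested between the 50k libraries without PAGE, where 34.6% of 10205 genes were called higher for RBFOX2 and 53.9% higher for hnRNP C. RBFOX2 was above hnRNP C in 93.7% of the 3278, and 2851 (87.0%) were called in that direction. Of the 3604 genes higher for hnRNP C that were tested there, 99.0% had the same direction and 3520 (97.7%) were called. Among genes not called at 10k, RBFOX2 was above hnRNP C in 20.45% of 2606 there and in 43.6% of 2594 between the 1k libraries. At 50k without PAGE most uncalled genes thus also lay on the hnRNP C side. Between the 1k libraries, 21.3% of 10063 genes were called for RBFOX2 and 15.2% for hnRNP C. The same direction was seen there in 96.3% of 3200 and 96.6% of 3632 genes, with 61.2% and 38.5% called. Against hnRNPc_50k_lowRNase replicate 2 alone, read as a value without a test, RBFOX2_50k_lowRNase had the same direction in 97.9% and 97.1%. The opposite direction was called in 92 and 23 genes at 50k without PAGE and in 1 and 2 genes at 1k.

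Many genes held sites of both classes of 1 protein only. RBFOX2 only sites lay in 9336 genes and hnRNP C only sites in 8949, and 6909 genes held both kinds, 74.0% and 77.2% of them. In these genes the nearest hnRNP C only site was a median of 2420 nt from an RBFOX2 only site, and 0.55% of RBFOX2 only sites had one within 100 nt. The nearest RBFOX2 only site was a median of 1403 nt away. From an hnRNP C only site, the nearest site of its own class was a median of 633 nt away and the nearest of RBFOX2 4128 nt. A larger part of the hnRNP C only sites lay in genes with many of them, with 55.2% in the 1262 genes that had 20 or more. The like share for RBFOX2 only sites was 14.9%, in 233 genes. The highest number in 1 gene was 301 for hnRNP C and 97 for RBFOX2. Sites of these classes cannot overlap by their definition, shared sites are left out, and the hnRNP C only sites are the larger class. These points bear on each of these distances. The size of the class also bears on the number of genes with 20 or more sites.

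The direction of a gene moved with the stretch of genome its transcript covered. Since no annotation of the build was at hand, the distance between the outermost peaks of a gene in the hnRNPA1_50k_noPAGE libraries, which are not in the comparison, stood in for its length. It was available for 98.9% of the genes tested. In the quintile of shortest spans, up to 8921 nt, RBFOX2 was higher in 70.2% of genes and hnRNP C in 10.5%, with a median log2 difference of 2.56. In the quintile of longest spans, from 100057 nt, RBFOX2 was higher in 14.0% and hnRNP C in 53.7%, with a median of −0.67. The median span was 12599 nt in genes higher for RBFOX2, 55670 nt in genes higher for hnRNP C and 38110 nt in genes not called. Chromosome 19 held 7.17% and 7.61% of the RBFOX2 reads and 2.93% and 2.89% of the hnRNP C reads, and chromosome X 4.36% and 4.11% against 6.45% and 6.46%. By clusters, chromosome 19 held 5.93% and 5.93% against 2.90% and 2.87%, but chromosome X 3.36% and 3.35% against 3.465% and 3.47%. On chromosome X, 1 gene held 20830 and 21203 RPM in hnRNP C against 8074 and 7120 in RBFOX2. Another held 4500 and 4418 RPM against 1472 and 1203. A span also depends on how many hnRNPA1 peaks a gene has, and the part of gene expression in these differences was not tested.

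**Figure D4:**
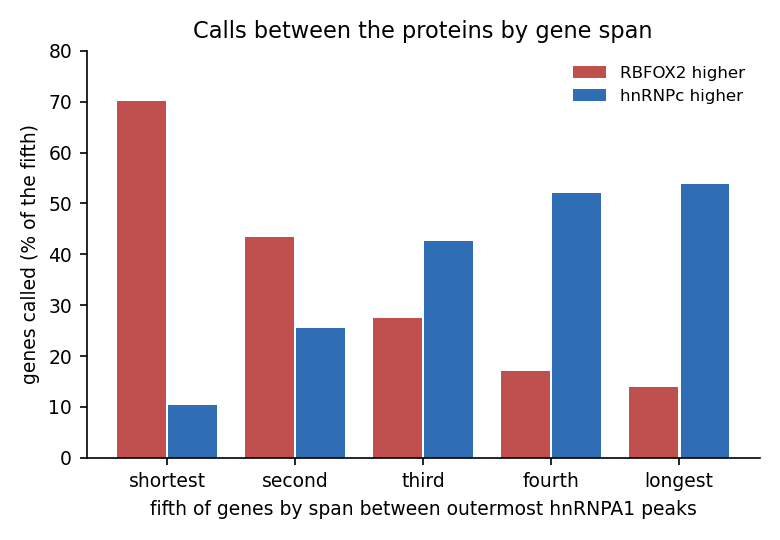
Percent of genes called higher for RBFOX2 or for hnRNP C by limma (vertical axis, bars) in each quintile of genes by the span between their outermost hnRNPA1 peaks (horizontal axis, 2004 or 2005 genes each). The RBFOX2 bars fall from 70.2% to 14.0% and the hnRNP C bars go from 10.5% to 53.7%.

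Along these spans the classes of site lay differently. In genes with a span of at least 10000 nt, position was counted from 0 at the 5′ end to 1 at the 3′ end. The median position was 0.37 over 85088 hnRNP C only sites and 0.53 over 36647 RBFOX2 only sites. The first decile of the span held 17.1% of the hnRNP C only sites and the ninth held 6.66%. RBFOX2 only sites were spread more evenly, with 12.7% in the first decile, 8.55% in the fifth and 14.4% in the last. The 3698 shared sites lay at both ends, with 18.4% in the first decile and 17.0% in the last. Sites of 1 gene share its transcript, so these shares describe the lists and carry no test.

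**Figure D5:**
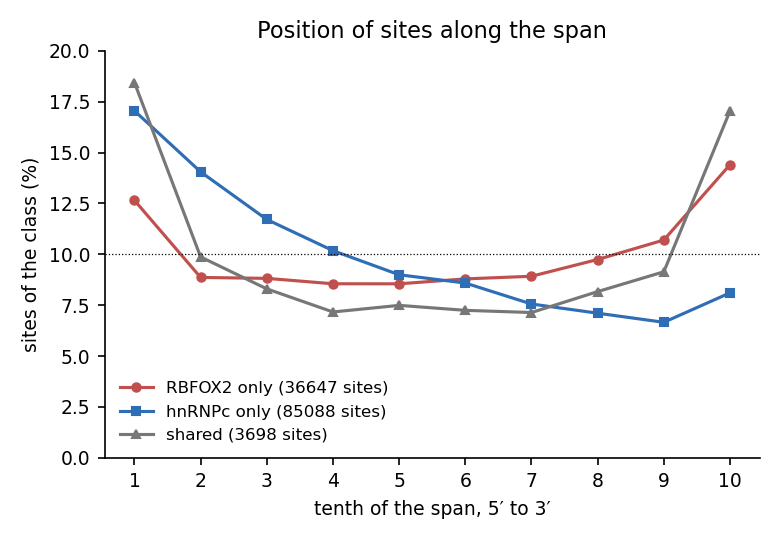
Percent of the sites of a class (vertical axis) in each decile of the gene span from 5′ to 3′ (horizontal axis), for RBFOX2 only, hnRNP C only and shared sites. The dotted line marks an even spread: hnRNP C only sites fall from 17.1% in the first decile to 6.66% in the ninth, while shared sites are highest at both ends.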

How the data were processed

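The 4 deposited peak lists of the comparison, 1 per library, have no header line. Per the submitters' processing notes, the authors used bcl2fastq, STAR 2.7.3a, UMI-tools 1.0.1 and the build hg19, and CLIPper is the peak caller in the names of the lists. The p-value of each peak is the authors' deposited value. Read numbers came from the peak names. Shares are reads per 1000000 cluster reads of a library (RPM). Peaks listed again under an overlapping gene (3.85% to 4.07%) were counted once in the totals. In the reads per gene they counted under each of their genes. The tests used limma 3.58.1 in R 4.3.3, with a pseudocount of 1 RPM for genes and none for sites, and were tested on simulated data. The comparison and lists were chosen with earlier results of these data known. Named genes were the 10 with the largest difference in each direction, of which at most 2 identifiers are printed, and the 5 with most reads of each protein. Named sites were the 5 per class with the highest share in the lowest defining library, 1 per gene. Of the identifiers, 0 could be matched to symbols, so the fixed gene lists and cell markers were not used here. Motifs were not analysed here for lack of sequence of this build. Between replicates, the chi-square per degree of freedom over genes was 5.48 for RBFOX2 and 4.31 for hnRNP C. A gene unlisted in 1 replicate counted as 0 there, and the part of the peak caller in these values was not tested.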

Additional observations from a re-analysis of the deposited data

Results flagged for a closer look

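The cluster at chr15:87435269-87435284 carried a signal in libraries outside the comparison. In the libraries of the 75-100 kDa gel region it held 58805 reads in replicate 1 and 73432 in replicate 2, more than the 21908 and 27501 in RBFOX2_10k. The 2 hnRNPc_10k libraries, made with the same antibody as that gel region, did not list it. None of the libraries without ultraviolet light listed it, but these were labelled 50k cells at 0.005 U of RNase. The crosslinked libraries titled 50k did not list it either, so ultraviolet light, cell number and RNase cannot be told apart here.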

How the results depend on the processing

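The causes of the moves below were not tested unless stated. With only peaks of p below 1e-05, hnRNP C was higher in 2304 genes and RBFOX2 at 506 shared sites, the site classes numbered 27008 (RBFOX2 only), 34967 (hnRNP C only) and 1804 (shared), and overlaps were 56.7% (RBFOX2 replicates), 51.6% (hnRNP C replicates), 7.36% and 5.43% (RBFOX2 and hnRNP C peaks with the other protein). In the 50000 peaks with most reads, the classes numbered 22057, 21279 and 1330, RBFOX2 only genes 2509, and the same overlaps were 60.8%, 56.0%, 6.95% and 6.73%. With 50% of the peak overlapped they were 35.4%, 34.2%, 6.22% and 3.95%. A filter at 50 RPM, which tests fewer genes, left 1871 genes higher for RBFOX2. Genes of 1 protein with at least 20 reads numbered 718 and 163. At shared sites, quantile normalization gave 844 and 894 calls and median centring 1008 and 819 (RBFOX2 and hnRNP C higher). The log2 difference of chrM:1673-1777 turned to −0.43 after median centring and −0.29 at p below 1e-05, was 0.58 after quantile normalization, and lay between −0.062 and 0.28 without 1 library. That of chrX:73071195-73071752 lay between −0.22 and 0.033 without 1 library.

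Concentration was compared as RBFOX2 minus hnRNP C, in the order of percent of reads in the top 100 clusters, percent of clusters with 50% of the reads, percent of reads in the top 10 genes and number of genes with 50% of the reads. Summed peaks gave 12.95, −12.5, 6.44 and −175. Peaks of p below 1e-05 gave 2.69, −10.1 and −0.59 for the first to the third. The 50000 peaks with most reads gave 0.88, −9.16, −3.07 and 252. Without mitochondrial peaks the third was 1.67. Without the chromosome 15 cluster, an alternative chosen after seeing the data, they were 2.44, −10.13, 0.48 and 184.5, and the genes called were 3570 and 3671.

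Leaving out 1 library at a time gave 2249 to 3211 genes higher for RBFOX2 and 2678 to 2872 for hnRNP C, and 0 to 1000 and 0 to 178 shared sites. A lone library was assumed to vary like the other group. By construction, fewer libraries also widened the classes: 49064 to 136190 RBFOX2 only sites, 94824 to 232600 hnRNP C only, 7405 to 8611 shared, 1806 to 2130 RBFOX2 only genes and 1166 to 1352 hnRNP C only genes. With the replicate block the calls were 3606 and 3928 genes and 1698 and 470 sites. The replicate numbers of the proteins did not pair the samples (correlation of deviations over genes 0.02), and the block moved no count by over 1.5 times. In all, 163 of 245 recomputed values kept their call or stayed within the stated range.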
